A study of Mus musculus with 6 samples.

Results

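The genes described here are *Hmgcs1*, *Mvd*, *Idi1*, *Fdps*, *Fdft1*, *Sqle*, *Lss* and *Cyp51*, 8 of the 16279 genes that the bulk RNA-seq tables list for F1 mouse embryonic stem cells (mESCs) or for cardiac precursor cell cultures (CPCCs). They were picked by gene symbol from the working name "cholesterol synthesis and LDL uptake". All 8 encode enzymes of cholesterol synthesis and not one handles LDL, so they are called the synthesis enzymes below, and lipoprotein uptake is covered by a list of its own. Each of the 8 is listed in both tables and passed the filter on low counts. The mESCs are male F1 lines from a C57BL/6J mother and a CAST/EiJ father, each grown as a clone from a single cell, in feeder-free 2i medium with LIF, the MEK inhibitor PD0325901 and the GSK3 inhibitor CHIR99021. The CPCCs were made from those clones through hanging drops and embryoid bodies with ascorbic acid, then enriched over several passages with EGF and Fgf2, without LIF and without the inhibitors. Fetal bovine serum, which carries lipoproteins, was in the medium of both. Each cell type has 3 libraries, named by their columns S01, S02 and S03 (mESC) and S04, S05 and S06 (CPCC).

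Cells build cholesterol from acetyl-CoA. HMG-CoA synthase (*Hmgcs1*) and the steps after it lead through mevalonate to isoprenoid pyrophosphates, made by *Mvd*, *Idi1* and *Fdps*. Squalene synthase (*Fdft1*) is the step that commits farnesyl pyrophosphate to sterols, and *Sqle*, *Lss* and *Cyp51* turn squalene into the sterol ring system and remove its C14 methyl group. When membrane cholesterol is low, the escort protein SCAP carries SREBP2 out of the endoplasmic reticulum to be cut, and the freed fragment switches on the genes of this pathway together. INSIG proteins hold the complex back when sterols are plentiful.

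Library totals lay between 6442639 and 6907330 counts in mESCs and between 8468819 and 11436062 in CPCCs, the largest in S04. S04 stood apart from the other CPCC libraries in the genes described here, so results are given with and without it. All 8 of a list of mESC markers fell in CPCCs. Of 9 cardiac progenitor markers 4 could be tested and 1, *Tnnt2*, rose, while *Gata4*, *Isl1* and *Pdgfra* had adjusted p of 0.137, 0.124 and 0.0609 (edgeR), with all CPCC libraries above all mESC libraries for *Isl1* and *Pdgfra*. Listed for CPCCs only were *Mef2c* (194, 82 and 112 counts), *Hand2* (68, 9 and 17), *Kdr* (24, 45 and 19) and *Nkx2-5* (16, 0 and 8), and *Tbx5* is listed for mESCs only. Of 8 mesenchymal markers 3 are listed for mESCs, where these summed to between 8.65 and 13.9 CPM, and all 8 for CPCCs, where they summed to between 11705 and 17943 CPM. Of 5 neural markers 4 are listed for mESCs, with sums between 40.6 and 46.4 CPM, and all 5 for CPCCs, with sums between 563 and 583 CPM. Of 5 endoderm markers 2 are listed for mESCs, with sums between 0.927 and 2.78 CPM. For CPCCs 3 are listed, with sums between 19.8 and 51.7 CPM, and the 1 tested, *Foxa2*, rose. In these bulk cultures fewer cells of a type and less RNA per cell cannot be told apart.

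Of the 8 synthesis enzymes, *Idi1*, *Fdft1*, *Sqle* and *Lss* fell in CPCCs, by between 1.74-fold and 3.44-fold. For *Hmgcs1*, *Mvd*, *Fdps* and *Cyp51* no difference passed the threshold, which was an adjusted p under 0.05 in the quasi-likelihood test of edgeR, adjusted by Benjamini-Hochberg over 12471 genes. So 4 were lower and 0 higher, where 29.7% of all genes tested were called lower, 31.7% higher and 61.4% in either direction. With 8 genes, the share called in either direction, 50.0%, is near that of all genes. The log2 fold change of CPCC over mESC (log2FC) had its median over the 8 at -0.82, against 0.03 over all genes tested. All 3 CPCC libraries lay below all 3 mESC libraries in 5 of the 8, against 34.5% of all genes, and above them in 0, against 35.3%. Levels are given below as CPM, counts per 1000000 after TMM normalization, and differences as log2FC with the standard error (SE). Positions are on GRCm38, as the tables give them.

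**Figure D1:**
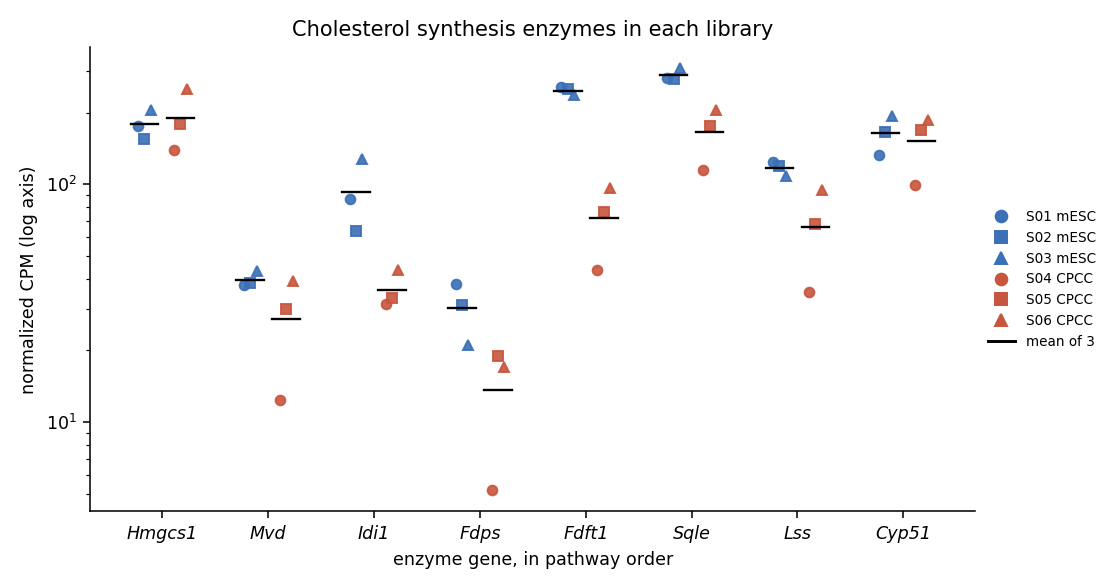
Normalized CPM (log axis) of the 8 synthesis enzymes, in pathway order, in each mESC library (blue) and each CPCC library (red); black bars are means of 3 libraries. The CPCC points lie wholly below the mESC points for *Idi1*, *Fdps*, *Fdft1*, *Sqle* and *Lss* and overlap them for *Hmgcs1*, *Mvd* and *Cyp51*, and S04 (red circle) is the lowest CPCC point for every gene.

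*Fdft1* (chromosome 14, 63145151 to 63179579, minus strand), squalene synthase, changed most. It stood at 256, 251 and 236 CPM in S01, S02 and S03 and at 43.5, 76.3 and 96.2 CPM in S04, S05 and S06. The mESC libraries were close to each other and the highest CPCC library was below the lowest of them. The means were 248 ± 9.88 CPM in mESCs and 72.0 ± 26.6 CPM in CPCCs (SD, n = 3 each), a log2FC of -1.78 (SE 0.27, adjusted p = 0.00044, edgeR). Without S04 the log2FC was -1.51 (adjusted p = 5.54e-06, edgeR), and the call held with each library left out in turn.

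*Sqle* (chromosome 15, 59315092 to 59331194), squalene epoxidase, which adds the oxygen needed for ring closure, stood at 279, 278 and 307 CPM in the mESC libraries and at 115, 175 and 205 CPM in the CPCC libraries. The groups did not overlap, and the spread was wider in CPCCs, where S04 was lowest. The log2FC was -0.80 (SE 0.22, adjusted p = 0.0104, edgeR), and -0.58 without S04. *Lss* (chromosome 10, 76531605 to 76557140), lanosterol synthase, which closes the rings, stood at 124, 120 and 109 CPM in the mESC libraries and at 35.4, 68.3 and 94.4 CPM in the CPCC libraries. The groups did not overlap, with S06 near the lowest mESC library. Its log2FC was -0.83 (SE 0.31, adjusted p = 0.0415, edgeR). This call was lost without S01, S02, S03 or S05 (largest adjusted p = 0.107, edgeR) and kept without S04, where the log2FC was -0.51 (adjusted p = 0.024, edgeR).

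*Cyp51* (chromosome 5, 4080674 to 4104698, minus strand), lanosterol demethylase, stood at 132, 166 and 194 CPM in the mESC libraries and at 99.3, 169 and 187 CPM in the CPCC libraries. S05 and S06 lay inside the mESC range and S04 below it. The log2FC was -0.11 (SE 0.25, adjusted p = 0.717, edgeR), and its sign turned without S03 (0.02) and without S04 (0.13).

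*Hmgcs1* (chromosome 13, 119690351 to 119708261), which makes HMG-CoA at the head of the pathway, stood at 177, 155 and 205 CPM in the mESC libraries and at 139, 179 and 252 CPM in the CPCC libraries. S04 was the lowest and S06 the highest of the 6 libraries. The log2FC was 0.08 (SE 0.23, adjusted p = 0.772, edgeR), and it ranged from -0.17 without S06 to 0.28 without S04. *Mvd* (chromosome 8, 122433596 to 122443423, minus strand), mevalonate diphosphate decarboxylase, stood at 37.5, 38.5 and 43.0 CPM in the mESC libraries and at 12.4, 29.8 and 39.1 CPM in the CPCC libraries. S06 lay inside the mESC range and S04 was far below it, with a log2FC of -0.55 (SE 0.36, adjusted p = 0.211, edgeR) that shrank to -0.19 without S04.

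*Idi1* (chromosome 13, 8885606 to 8892397), the isomerase that makes the reactive isoprenoid unit, stood at 86.4, 63.8 and 128 CPM in the mESC libraries and at 31.3, 33.3 and 43.4 CPM in the CPCC libraries. The groups did not overlap, and here the spread was wider in mESCs. Its log2FC was -1.36 (SE 0.27, adjusted p = 0.00213, edgeR), with -1.26 without S04. *Fdps* (chromosome 3, 89093588 to 89101968, minus strand), farnesyl pyrophosphate synthase, was the lowest of the 8 in counts summed over the 6 libraries, with 246, 211 and 144 counts in mESCs and 52, 156 and 148 in CPCCs. It stood at 38.0, 31.04 and 21.1 CPM in the mESC libraries and at 5.17, 18.9 and 16.96 CPM in the CPCC libraries. The groups did not overlap, although S05 came close to S03. The log2FC of *Fdps* was -1.14 (SE 0.45) and just missed the threshold of edgeR's test (adjusted p = 0.0502). It passed without S04 (-0.73, adjusted p = 0.0351, edgeR), without S05 (adjusted p = 0.0434, edgeR) and with DESeq2 (adjusted p = 0.0238), which called 5 of the 8 lower and 30.8% of all genes.

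**Figure D2:**
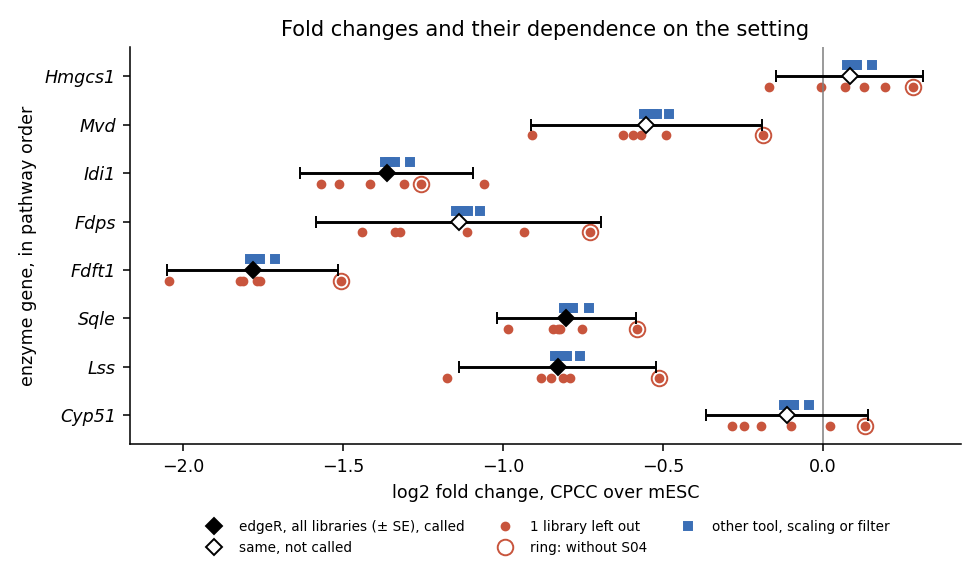
Log2 fold change (log2FC, CPCC over mESC) of each synthesis enzyme with its standard error (SE, diamonds, filled where called), beside the values with 1 library left out (red, ringed without S04) and with another tool, scaling or filter (blue). The value without S04 is the highest of the red points for 7 of the genes, *Idi1* being the exception, and *Idi1*, *Fdps*, *Fdft1*, *Sqle* and *Lss* stayed below zero in every setting drawn.

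S04 had the lowest level of the 3 CPCC libraries in all 8 synthesis enzymes, while it was the lowest in 43.1% of all genes tested. S06 was the highest in 7 of the 8 (32.9% of all genes), the exception being *Fdps*. The level of S04 over the mean of S05 and S06 ran from 0.288 for *Fdps* and 0.361 for *Mvd* to 0.644 for *Hmgcs1* and 0.816 for *Idi1*. The sum over the 8 genes was 1129, 1103 and 1243 CPM in the mESC libraries and 481, 750 and 934 CPM in the CPCC libraries. Without S04, 5 of the 8 were lower and 0 higher (edgeR), where 30.4% of the genes tested were lower, 32.3% higher and 62.7% called in either direction. Their median log2FC was then -0.55.

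**Figure D3:**
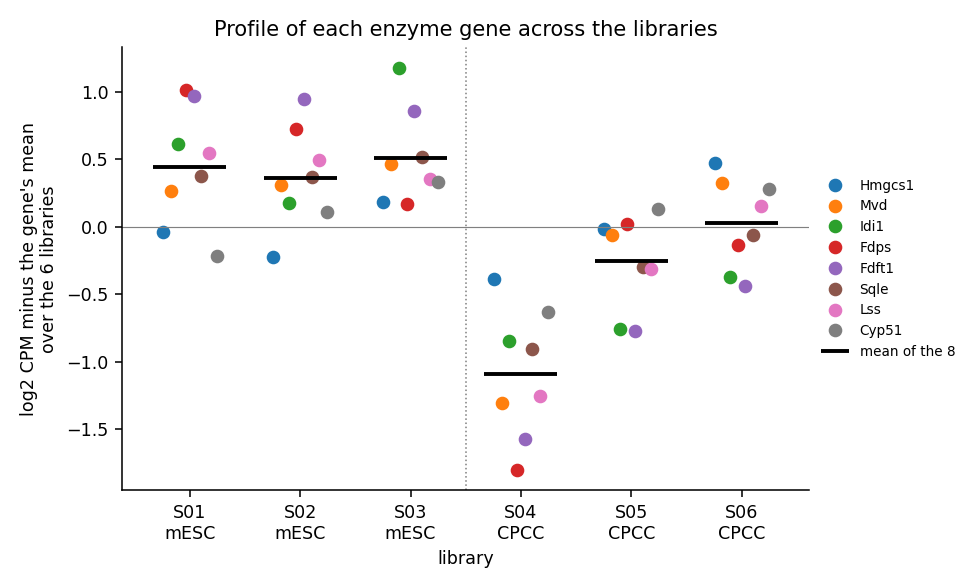
Log2 CPM of each synthesis enzyme minus its own mean over the 6 libraries (coloured points), with the mean of the 8 genes in each library (bar). The bars lie at 0.44, 0.36 and 0.51 in the mESC libraries and at -1.09, -0.26 and 0.03 in S04, S05 and S06, and *Hmgcs1* and *Cyp51* lie nearest to zero in S04.

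Most markers of cell division were also lower in CPCCs, and lowest in S04. Of 6 proliferation markers, 5 fell in CPCCs (*Top2a*, *Ccnb1*, *Cdk1*, *Pcna* and *Mcm2*) and *Mki67* had an adjusted p of 0.367 (edgeR). Their summed level was 2717, 2763 and 3056 CPM in the mESC libraries and 478, 1089 and 1420 CPM in S04, S05 and S06, with no marker at 0. Their part in the levels of the synthesis enzymes was not tested. The genes whose profile over the 6 libraries came nearest to the mean profile of the 8 enzymes were *Anp32e*, *Nsdhl*, *Ccna2*, *Hmmr* and *Cryz*, at root mean square distances of 0.03, 0.06, 0.06, 0.08 and 0.09 on the log2 scale, where the median over all other genes was 0.76. *Nsdhl* is itself a sterol synthesis enzyme, *Ccna2* (cyclin A2) and *Hmmr* act in cell division, *Anp32e* is a histone chaperone and *Cryz* a quinone reductase. Of the 8 enzymes themselves *Sqle* (0.09) and *Lss* (0.13) lay nearest to that mean, and *Fdft1* and *Hmgcs1* farthest (both 0.49).

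Levels of different genes were compared per kilobase of the principal transcript in GENCODE M21. In mESCs the order ran from *Sqle* with 104 ± 5.97 CPM per kilobase (SD, n = 3), *Fdft1* with 66.9 ± 2.67, *Hmgcs1* with 51.7 ± 7.25 and *Cyp51* with 41.7 ± 7.81 down to *Idi1* with 30.6 ± 10.8, *Lss* with 25.1 ± 1.69, *Mvd* with 22.6 ± 1.66 and *Fdps* with 21.7 ± 6.16 CPM per kilobase. *Sqle* lay above *Fdft1* and *Fdft1* above *Hmgcs1* in every library, and the ranges of all other neighbours overlapped. In CPCCs *Sqle* again led with 59.8 ± 16.7 CPM per kilobase, followed by *Hmgcs1* with 54.8 ± 16.5, *Cyp51* with 38.6 ± 11.8 and *Fdft1* with 19.5 ± 7.18. *Mvd*, *Lss*, *Idi1* and *Fdps* came last with 15.4, 14.1, 11.9 and 9.90 CPM per kilobase, and each gene's range overlapped that of its neighbour. The level of *Fdft1* per kilobase was above those of *Hmgcs1* and *Cyp51* in each mESC library and below both in each CPCC library.

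Some of these counts are uncertain because genes share sequence, and the library kit does not mark the strand. The exons of *Fdft1* share 774 bases with those of *Ctsb*, a lysosomal protease gene on the opposite strand, which measured 645, 637 and 606 CPM in the mESC libraries and 1078, 697 and 508 CPM in the CPCC libraries. In GENCODE M21, from which the overlaps here are taken, *Cyp51* shares 166 exonic bases with *Akap9* on the opposite strand. In the deposited positions these genes do not overlap, as *Akap9* ends at 4080205 and *Cyp51* starts at 4080674. *Akap9* rose (log2FC 0.75, SE 0.17, adjusted p = 0.0049, edgeR). *Fdps* shares 1124 exonic bases with *Gm43738* on its own strand, and *Hmgcs1*, *Idi1* and *Lss* share 557, 323 and 381 bases with opposite-strand genes, all of them listed in neither table. How the shared reads were divided was not tested. *Mvd* and *Sqle* overlap no other exon. Of the 31-base words in the exons of *Idi1*, *Fdps* and *Fdft1*, 27.1%, 27.9% and 31.9% also occur in another gene.

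The other enzymes of sterol synthesis were taken from a list of 13, all of them tested. Of these 7 fell and 2 rose, and their median log2FC was -0.73. So 69.2% were called, near the 61.4% of all genes tested, and 53.8% were called lower, against 29.7%. Enzymes on both sides of the 8 in the pathway were among those that fell. *Acat2*, the thiolase that makes acetoacetyl-CoA, measured 195, 203 and 170 CPM in the mESC libraries and 54.8, 102 and 103 CPM in the CPCC libraries (log2FC -1.13, SE 0.25, adjusted p = 0.00369, edgeR). *Pmvk*, phosphomevalonate kinase, went from 43.9, 45.7 and 42.1 CPM to 4.97, 16.98 and 25.0 CPM (-1.49, SE 0.46, adjusted p = 0.0197, edgeR), a call lost without S02 or S03. *Lbr*, the lamin B receptor, which is also a sterol C14 reductase, fell most, from 846 ± 47.6 to 214 ± 103 CPM (SD, n = 3 each).

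*Nsdhl* and *Msmo1*, which remove the C4 methyl groups, fell with log2FC of -0.88 and -0.73. The call for *Msmo1* was lost without S03, S04 or S05 and that for *Nsdhl* without S01 or S03. *Ebp* and *Dhcr7*, a sterol isomerase and the reductase of the last step of one branch, fell with log2FC of -0.89 and -1.02, calls lost without S02 and without S03. *Mvk* and *Tm7sf2* had log2FC of -0.41 and -0.71, with adjusted p of 0.185 and 0.197 (edgeR).

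*Hsd17b7* and *Sc5d* rose. *Hsd17b7*, the sterol 3-keto reductase, measured 11.3, 7.35 and 13.6 CPM in the mESC libraries and 99.7, 38.0 and 55.7 CPM in the CPCC libraries, and here S04 was the highest library. Its log2FC was 2.58 (SE 0.39, adjusted p = 0.000437, edgeR). *Sc5d*, the sterol desaturase, measured 41.7, 39.7 and 41.0 CPM in the mESC libraries and 78.0, 80.6 and 74.5 CPM in the CPCC libraries, with the smallest coefficient of variation over the CPCC libraries on this list (3.97%) and a log2FC of 0.93 (SE 0.16, adjusted p = 0.000919, edgeR).

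Of 7 genes that control SREBP, *Scap* and *Insig2* rose and 0 fell. The share called, 28.6%, is below the 61.4% of all genes tested. *Scap*, the escort protein, measured 57.2, 55.3 and 44.2 CPM in the mESC libraries and 112, 144 and 105 CPM in the CPCC libraries (log2FC 1.21, SE 0.20, adjusted p = 0.00068, edgeR). *Insig2* had a log2FC of 0.57 (adjusted p = 0.0371, edgeR), a call lost without S01, S02, S04 or S05. *Insig1*, a retention protein that is itself an SREBP target, stood at 87.9, 85.8 and 88.0 CPM in the mESC libraries and at 23.3, 56.6 and 69.1 CPM in the CPCC libraries. Those groups did not overlap, but its log2FC of -0.81 missed the threshold (adjusted p = 0.0621, edgeR), passing with DESeq2 (adjusted p = 0.037) and, in edgeR, without S04 or S06. *Srebf2*, which encodes SREBP2, had 68.5 ± 6.97 CPM in mESCs and 61.9 ± 23.2 CPM in CPCCs (SD, n = 3 each), with a log2FC of -0.15 (SE 0.28, adjusted p = 0.663, edgeR). *Srebf1* had a log2FC of 0.27 (adjusted p = 0.263, edgeR), with 0.43 and a call without S04 (adjusted p = 0.0353, edgeR). The proteases *Mbtps1* and *Mbtps2* had -0.19 and 0.16 (adjusted p = 0.439 and 0.609, edgeR).

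Lipoprotein uptake and transport inside the cell changed in both directions. Of 13 genes on that list 8 rose and 4 fell, with a median log2FC of 0.78, and 92.3% were called. Over all genes tested 61.4% were called, 31.7% as higher and 29.7% as lower. The 4 falls had log2FC between -1.09 and -0.63, so the largest changes were rises. Among the falls, named after their values were seen, were *Scarb1*, a receptor for high-density lipoprotein, at -0.63 (adjusted p = 0.0214, edgeR), and *Mylip*, a ubiquitin ligase that marks lipoprotein receptors for breakdown, at -0.99 (adjusted p = 0.0244, edgeR). The call for *Scarb1* was lost without S01, S02 or S05 and that for *Mylip* without S02, S05 or S06. Of the genes that rose, *Lipa*, the lysosomal acid lipase that frees cholesterol from taken-up esters, measured 4.48, 5.15 and 10.7 CPM in the mESC libraries and 143, 124 and 77.4 CPM in the CPCC libraries (log2FC 4.08, SE 0.38, adjusted p = 2.94e-05, edgeR). *Lrp1*, a large endocytic receptor of the LDL receptor family, measured 43.6, 51.8 and 39.1 CPM in the mESC libraries and 707, 598 and 402 CPM in the CPCC libraries (3.67, SE 0.25, adjusted p = 5.74e-06, edgeR). *Lrp8*, a receptor of the same family, measured 11.7, 9.71 and 14.0 CPM in the mESC libraries and 32.1, 61.2 and 65.8 CPM in the CPCC libraries (2.16, SE 0.31, adjusted p = 0.000342, edgeR). The cell types did not overlap for *Lipa*, *Lrp1* or *Lrp8*, and these calls held with each library left out.

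Of 11 genes for efflux, storage and oxysterols 8 were tested, 2 rose and 1 fell. So 37.5% of those tested were called, below the 61.4% of all genes tested. *Abca1*, which exports cholesterol to apolipoproteins, measured 6.49, 6.33 and 6.73 CPM in the mESC libraries and 148, 98.3 and 63.3 CPM in the CPCC libraries (log2FC 3.98, SE 0.33, adjusted p = 1.62e-05, edgeR). *Soat1*, which esterifies cholesterol for storage, rose from 6.34 ± 2.07 to 51.4 ± 17.5 CPM (SD, n = 3 each), a log2FC of 3.02. *Nr1h2*, the sterol-sensing receptor LXR beta, fell with a log2FC of -0.78 (adjusted p = 0.00932, edgeR). Among the genes named from the uptake and efflux lists that rose, S04 was the highest CPCC library for *Lipa*, *Lrp1*, *Abca1* and *Soat1*. For *Lrp8* it was the lowest.

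**Figure D4:**
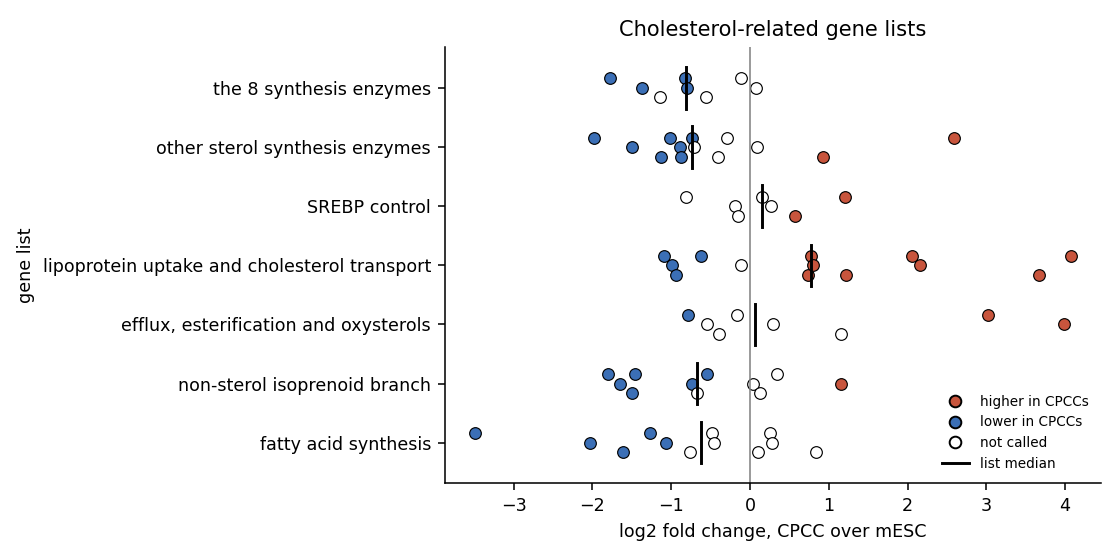
Log2 fold change (log2FC, CPCC over mESC) of each tested gene of the synthesis enzymes and of 6 related gene lists, coloured by call, with the list median as a bar. The medians of the synthesis enzymes and of the other sterol synthesis enzymes lie at -0.82 and -0.73, and the uptake and transport list has its median at 0.78 and 8 genes called higher.

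Promoter sequences were examined for 3 short motifs, 1 of them the sterol regulatory element. RefSeq promoter windows (GRCm38.p6) were on hand for *Hmgcs1*, *Mvd*, *Idi1*, *Lss* and *Cyp51*, each from 250 bases before to 50 after a transcript start. They were searched on both strands for the sterol regulatory element TCACNCCAC, the CCAAT box bound by NF-Y and the GC box GGGCGG bound by Sp1. The CCAAT box was found in all 5 windows and the GC box in all 5, against 37.4% and 35.7% of all 32851 windows and 10 and 11 of the 14 windows of the other enzymes. The sterol regulatory element letters were found in 1 of the 5, *Hmgcs1*, at position -137 from the start, against 1.24% of all windows, and in 0 of those 14. Shown are the 250 bases before the start of *Hmgcs1*, whose level did not pass the test (chr13:119690101-119690350, plus strand), and of *Idi1* (chr13:8885356-8885605, plus strand) and *Lss* (chr10:76531355-76531604, plus strand), which fell. Capitals mark every match of the 3 motifs, on either strand.
Hmgcs1: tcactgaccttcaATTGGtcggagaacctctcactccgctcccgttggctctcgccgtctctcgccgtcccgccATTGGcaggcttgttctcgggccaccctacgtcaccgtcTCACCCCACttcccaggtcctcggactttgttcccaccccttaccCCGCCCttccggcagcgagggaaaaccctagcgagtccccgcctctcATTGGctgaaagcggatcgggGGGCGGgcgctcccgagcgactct
Idi1: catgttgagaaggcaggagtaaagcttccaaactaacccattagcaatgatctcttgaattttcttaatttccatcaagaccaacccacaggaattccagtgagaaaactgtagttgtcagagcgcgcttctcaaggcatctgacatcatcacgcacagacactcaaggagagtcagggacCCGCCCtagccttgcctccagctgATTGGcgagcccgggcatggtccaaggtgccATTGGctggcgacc
Lss: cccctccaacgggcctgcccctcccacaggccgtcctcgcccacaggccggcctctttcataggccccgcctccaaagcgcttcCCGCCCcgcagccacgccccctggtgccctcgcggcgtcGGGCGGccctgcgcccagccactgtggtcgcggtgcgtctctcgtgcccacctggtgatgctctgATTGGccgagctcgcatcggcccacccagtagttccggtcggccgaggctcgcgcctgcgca
*Hmgcs1* has 3 CCAAT boxes in this stretch, *Idi1* 2 and *Lss* 1, all on the opposite strand, while *Hmgcs1* and *Lss* have 2 GC boxes each and *Idi1* has 1. A match is a stretch of letters and not evidence of binding.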

How the data were processed

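The authors made cDNA from polyA+ RNA with a SMART-Seq v4 kit and Nextera XT libraries. The values they deposited are estimated counts per gene without normalization, in 1 table per cell type. The submitters' processing notes name STAR 2.7 and mm10. For the single cells the paper reports count tables from STAR 2.7 run within Partek Flow. A counter for the bulk tables is not given in the sources used here. Every listed gene has at least 10 counts over the 3 libraries of its table. Columns carry no replicate number, so libraries were assigned to a cell type only.

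Estimated counts were rounded, and the 13001 genes in both tables were filtered with filterByExpr, which left 12471. Groups were compared with the quasi-likelihood test of edgeR 4.0.16 (R 4.3.3) after TMM, at an adjusted p under 0.05. A standard error is the log2 fold change over the square root of F. The 3 libraries of a cell type came from separate clones. In data simulated for this comparison, 200 of 13001 genes were changed. The test recovered 28 of 78 genes changed 2-fold and 68 of 68 changed 8-fold, so changes near 2-fold can be missed. In the real data 7656 of 12471 genes were called, far more than were changed in the simulation. The adjustment of p depends on that number, so the recovered shares may not hold for the real data.

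The members and lists were chosen with earlier results of these data known. Named are the 8 enzymes, the lists of other enzymes and of SREBP control, the 3 largest called changes of each other list, and the 5 nearest profiles (log2 CPM, prior count 2). Of the list of other enzymes 2 genes, and some of the uptake list that moved in either direction, are counted but not reported here. Alternatives were DESeq2 1.42.0, upper-quartile or no normalization, other filters, library sizes over whole tables, a 2-fold call rule, and leaving out each library.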

Additional observations from a re-analysis of the deposited data

Results flagged for a closer look

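*Ch25h* and *Cyp46a1*, a pair of cholesterol hydroxylases on the list for efflux, storage and oxysterols, are listed for CPCCs only and so were outside the test. They are given here because their CPCC level exceeds what 3 counts per mESC library (0.448 CPM) would allow. *Ch25h* had 162, 63 and 61 counts in S04, S05 and S06 and was at least 22.9-fold higher in CPCCs. *Cyp46a1* had 17, 52 and 42 counts and was at least 9.53-fold higher. Both folds set the mean of the CPCC libraries against that floor and carry no counting interval. They assume that a gene not listed for mESCs had no more than 3 counts per library. S04 raised the mean of *Ch25h* (16.1, 7.64 and 6.99 CPM in S04, S05 and S06) and lowered that of *Cyp46a1* (1.69, 6.31 and 4.81 CPM).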

How the results depend on the processing

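Of 104 values for the 8 enzymes over 13 alternatives, 88 kept their direction and their side of the threshold. *Idi1* and *Fdft1* kept their call in all of them and *Sqle* in all but the 2-fold rule, which removes *Sqle* (-0.80) and *Lss* (-0.83) by its construction. *Lss* also missed the threshold with upper-quartile normalization (-0.81, adjusted p = 0.0536), with library totals alone (-0.80) and with at least 10 counts in every library (-0.76), and *Fdps* passed with DESeq2 (-1.15). The cause was not tested. With 1 library left out the log2 fold change ranged from -1.18 to -0.51 for *Lss*, from -1.44 to -0.73 for *Fdps*, from -0.17 to 0.28 for *Hmgcs1* and from -0.29 to 0.13 for *Cyp51*. The sign of *Hmgcs1* turned without S02 (-0.0056) and S06 (-0.17), and that of *Cyp51* without S03 (0.02) and S04 (0.13).

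The 2-fold rule left 2 of the enzymes, each of them lower. In either direction it left 5 of the other sterol enzymes, 1 of the SREBP control genes and 6 of the uptake genes. Over the whole table it left 5604 of 12471 genes in either direction, 2430 of them lower. Leaving out 1 library gave from 5 to 9 other sterol enzymes and from 1 to 3 SREBP control genes, in either direction. Over the whole table it gave from 6536 genes (without S01) to 7895 (without S04). Of the 36 genes outside the 8 that the naming rule gave, 16 changed call or sign under at least 1 alternative, and *Srebf2* and *Mbtps1* changed sign. *Srebf2* ranged from -0.39 without S06 to 0.14 without S04, and *Mbtps1* from -0.31 without S01 to 0.0455 without S03. No paired analysis was possible because the columns carry no replicate numbers. With 3 libraries a side some changes under 2-fold passed the test, as for *Sqle* and *Lss*, and others of that size can be missed.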

Other observations

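The branch that uses isoprenoids for purposes other than sterols had 6 of 11 genes lower and 1 higher in CPCCs (edgeR, adjusted p under 0.05). The median log2FC was -0.67. So 63.6% were called, near the 61.4% of all genes tested, and 54.5% were called lower, against 29.7%. *Fntb*, the beta subunit of protein farnesyltransferase, measured 172, 164 and 111 CPM in the mESC libraries and 28.3, 46.6 and 52.9 CPM in the CPCC libraries (log2FC -1.81, SE 0.27, adjusted p = 0.000446, edgeR). *Rabggta*, a subunit of the enzyme that prenylates Rab proteins, had a log2FC of -1.65, and *Pdss1*, which makes the side chain of ubiquinone, had -1.49. Calls differed among genes of the same 2 processes, and those named next were chosen after their values were seen. Differences between genes were not tested. *Fnta* and *Rabggtb* also fell, with log2FC of -0.73 and -1.45. *Pggt1b*, the beta subunit of another prenyl transferase, was the 1 gene that rose (1.15, adjusted p = 0.0106, edgeR), and *Pdss2*, the partner of *Pdss1*, was not called (-0.67, adjusted p = 0.163, edgeR).

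Fatty acid synthesis, which shares acetyl-CoA and SREBP control with the sterol pathway, had 5 of 12 genes lower and 0 higher. The median log2FC was -0.62. So 41.7% were called lower, against 29.7% of all genes tested, and 61.4% of all genes were called in either direction. *Acacb*, an acetyl-CoA carboxylase, measured 28.4, 26.2 and 28.4 CPM in the mESC libraries and 1.39, 2.30 and 3.67 CPM in the CPCC libraries (log2FC -3.50, SE 0.36, adjusted p = 5.65e-05, edgeR). *Elovl6*, a fatty acid elongase, fell from 437 ± 43.4 to 107 ± 42.5 CPM (SD, n = 3 each), and *Scd1*, a desaturase, had a log2FC of -1.61. Without S04, 2 genes of this list were higher and 5 lower (edgeR), where 32.3% of all genes tested were higher and 30.4% lower. The falls of *Fntb*, *Rabggta*, *Pdss1*, *Acacb*, *Elovl6* and *Scd1* held with each library left out.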
